A study of Rattus norvegicus with 18 samples.

Results

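The 9 genes described here encode the ligands and receptors of the vascular endothelial growth factor (VEGF) family that were listed by name: the ligands Vegfa, Vegfb, Vegfc and Pgf, the receptor tyrosine kinases Flt1, Kdr and Flt4, and the co-receptors Nrp1 and Nrp2. They were found by gene symbol, each at 1 row, among the 32623 genes measured by RNA-seq in the prefrontal cortex (PFC) of 18 Sprague Dawley rat pups at postnatal day 14 (P14). The question was whether their levels differed with the route of opioid exposure. In the control group (SAL, 6 pups) the dams were given saline. In the postnatal group (PNO, 6 pups) the dams were gavaged with oxycodone (oxy), an opioid analgesic, at 15 mg/kg/day from parturition, so that pups met the drug through milk. In the in utero group (IUO, 6 pups) the dams started at 10 mg/kg/day for 5 days, were raised by 0.5 mg/kg/day over 10 days to 15 mg/kg/day before mating, and stayed on the drug through gestation and nursing. The dose of the dam is known, while the dose that reached a pup was not measured in these data. The labels give neither litter nor sex of a pup, so the p-values measure the spread between pups, of which some may share a dam.

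VEGF ligands are secreted proteins that act on receptor tyrosine kinases, mostly on endothelial cells. Vegfa acts through Kdr, the main signalling receptor for vessel growth, and also binds Flt1, which holds ligand tightly and signals weakly. Vegfb and Pgf bind Flt1, and Vegfc acts through Flt4 and Kdr and is best known for lymphatic growth. Nrp1 and Nrp2 bind VEGF ligands beside these receptors and also bind class 3 semaphorins on growing axons. In the brain Vegfa is made largely by neurons and glia, and its messenger RNA is raised by hypoxia-inducible factors.

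Totals of expected counts lay between 18381819 and 26084780 per pup, and mitochondrial genes took between 7.47% and 17.38% of them, with the highest share in SAL replicate 4. Behind the levels were between 1735 and 2666 counts per pup for Vegfa, between 510 and 906 for Kdr, between 52 and 101 for Flt4 and between 8 and 34 for Pgf. All 9 members passed the filter on low counts. The sampled tissue was not uniform, since the summed level of 7 striatal markers ranged from 128.5 to 1594 CPM (counts scaled to the size of each library) and that of 7 choroid plexus markers from 4.255 to 977.8 CPM. In such bulk tissue, fewer cells of a type and less RNA per cell cannot be told apart.

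The starts of the 3 members with a difference at an unadjusted p-value under 0.05 in any comparison are printed as a view of the regulated region of these genes. Each covers 250 bases before and 50 bases after the annotated start (RefSeq, build GRCr8), reading 5′ to 3′ on the strand of the gene. Capitals mark the GC box, the letters GGGCGG or their reverse complement CCGCCC. The Vegfa stretch lies at chr9:22452604-22452903 on the plus strand, the Kdr stretch at chr14:32571813-32572112 on the plus strand and the Flt4 stretch at chr10:34414584-34414883 on the plus strand.
Vegfa: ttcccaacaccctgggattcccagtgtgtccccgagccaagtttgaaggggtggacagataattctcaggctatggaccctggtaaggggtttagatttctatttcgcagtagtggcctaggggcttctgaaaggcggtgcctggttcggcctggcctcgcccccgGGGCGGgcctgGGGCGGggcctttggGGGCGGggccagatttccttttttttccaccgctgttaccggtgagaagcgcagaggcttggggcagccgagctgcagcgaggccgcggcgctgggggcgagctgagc
Kdr: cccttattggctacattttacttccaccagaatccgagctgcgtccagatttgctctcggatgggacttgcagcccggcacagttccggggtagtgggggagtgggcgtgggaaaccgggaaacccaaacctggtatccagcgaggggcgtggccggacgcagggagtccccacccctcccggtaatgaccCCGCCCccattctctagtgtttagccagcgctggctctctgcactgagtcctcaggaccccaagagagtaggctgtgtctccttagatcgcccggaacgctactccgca
Flt4: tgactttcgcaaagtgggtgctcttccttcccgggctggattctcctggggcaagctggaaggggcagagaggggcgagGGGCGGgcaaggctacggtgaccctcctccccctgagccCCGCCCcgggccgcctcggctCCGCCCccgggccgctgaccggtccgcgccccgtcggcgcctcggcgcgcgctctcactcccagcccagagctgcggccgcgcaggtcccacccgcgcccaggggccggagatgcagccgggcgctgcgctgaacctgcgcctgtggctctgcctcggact
GC boxes stood in 7 of the 10 promoters that RefSeq gives for the 9 members (Vegfa has 2), against 33.1% of 33469 rat promoters of the same length. The letters ACGTG or GCGTG on either strand, the core to which hypoxia-inducible factors bind, were in 6 of 10 against 41.6%. TATAAA on either strand was in the Flt1 promoter, 1 of 10, against 14.2%. Vegfa's first promoter held 3 GC boxes and no hypoxia core in this window. Kdr's held 1 GC box and 2 hypoxia cores, and Flt4's held 3 GC boxes and no hypoxia core. Such letter matches are descriptions of the sequence and not binding sites.

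Vegfa was the most abundant member per length. On the TPM scale, which corrects for gene length, the mean in SAL was 50.71 ± 4.034 (SD, n = 6) for Vegfa and 13.81 ± 3.568 for Vegfb. Below them stood the co-receptor Nrp1 at 12.37 ± 2.791, the receptor Kdr at 9.667 ± 2.409, the co-receptor Nrp2 at 7.637 ± 4.751 and the receptor Flt1 at 5.818 ± 0.9316. The lowest levels belonged to Vegfc at 2.573 ± 0.302, its receptor Flt4 at 1.048 ± 0.1593 and Pgf at 0.96 ± 0.292.
Vegfa lay above Vegfb in 18 of 18 pups, with a ratio of SAL means of 3.67, and the SAL ranges did not overlap. The order Flt1 above Vegfc and Vegfc above Flt4 also held in 18 of 18 pups without overlap in SAL. From Vegfb to Flt1 the SAL ranges of neighbours overlapped at each step. Within a pup Vegfb was above Nrp1 in 16 of 18 and Nrp1 above Kdr in 17 of 18, while Kdr was above Nrp2 in 11 of 18 and Nrp2 above Flt1 in 12 of 18. Flt4 was above Pgf in 9 of 18 pups.
Of the summed TPM of the 4 listed ligands, Vegfa made up between 61.8% and 78.7% in a pup and Vegfb between 16.3% and 33.5%. A further VEGF ligand, Vegfd, was not a listed member and is not in this sum. Its mean was 0.924 CPM in SAL, 1.458 CPM in PNO and 1.635 CPM in IUO, and it was counted below among the genes of ligand processing.

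**Figure D1:**
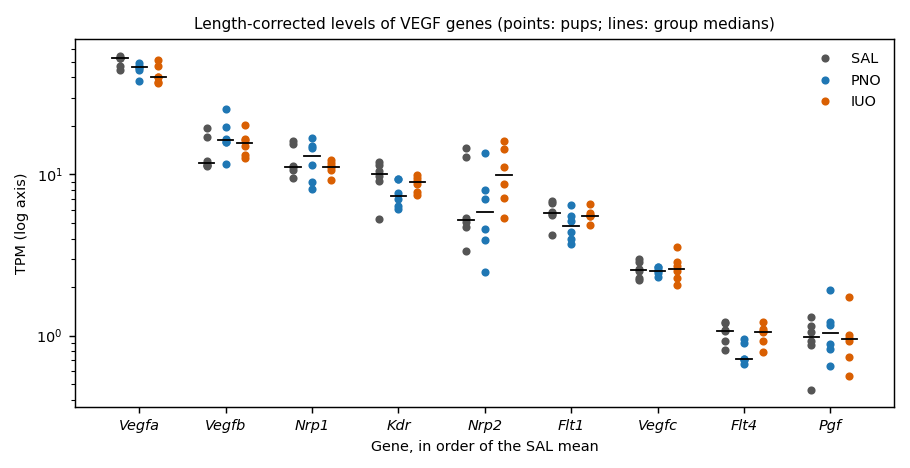
TPM of each of the 9 genes on a log axis, with 1 point per pup, coloured by group, and a line at each group's median. Vegfa stands apart at the top and Flt4 and Pgf share the lowest levels, and Nrp2 runs from 3.35 to 14.52 TPM in SAL.

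The spread between pups differed among the members. On the TMM-normalized CPM scale, used for all comparisons between pups, Nrp2 ranged from 11.15 to 63.29 CPM, a ratio of 5.68 between the highest and the lowest of the 18 pups. Its SD of log2 CPM within groups was 0.693, larger than that of 97.6% of the 5045 genes whose mean level was within a factor of 2 of its own. The other co-receptor, Nrp1, had an SD of 0.25 and a ratio of 1.74.
Vegfc and Flt4, a ligand and its receptor, were the steadiest for their level. Their SDs were 0.194 and 0.193, smaller than those of most genes of a like level, of which 6.1% and 5.9% had a smaller SD. For Vegfa, Kdr and Flt1 the SDs of 0.179, 0.207 and 0.193 were near the medians of such genes (0.168, 0.193 and 0.205).

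No member passed the test in any comparison. Differences were tested by edgeR's quasi-likelihood test with Benjamini-Hochberg adjustment over 15703 genes, and a call required both an adjusted p-value under 0.05 and a 1.5-fold difference. Between PNO and SAL 0 of 9 members and 0% of all genes were called. Between IUO and SAL the counts were again 0 of 9 and 0%, and between IUO and PNO 0 of 9 against 0.0446% of all genes, or 0.0637% at any fold. DESeq2 also called 0 members in each comparison, out of 1, 22 and 172 genes called in all, and limma-voom 0 members out of 0, 17 and 703 genes.
At an unadjusted p-value under 0.05, edgeR gave 2 of 9 members between PNO and SAL, where 4.5% of all genes passed. Both, Kdr and Flt4, were lower in PNO, a direction that 2.6% of all genes took, against 1.89% higher. It gave 1 of 9 between IUO and SAL, where 6.88% passed. This was Vegfa, lower in IUO, beside 3.87% of all genes lower and 3.02% higher. Between IUO and PNO 1 of 9 passed, where 15.3% of all genes did. This was Flt4, higher in IUO, beside 6.14% of all genes higher and 9.14% lower. The groups overlapped for every member in each comparison, while 0.108%, 0.745% and 1.66% of all genes did not overlap. The median log2 fold change of the members was -0.08, -0.03 and -0.03 in the 3 comparisons, beside 0.00, -0.01 and 0.00 over all genes tested.
The 95% intervals limit how large a difference could have gone unseen. For 5, 7 and 5 of the 9 members the interval lay wholly within a 1.5-fold change in either direction. Intervals for Nrp2 and Pgf reached past it in all 3 comparisons.

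**Figure D2:**
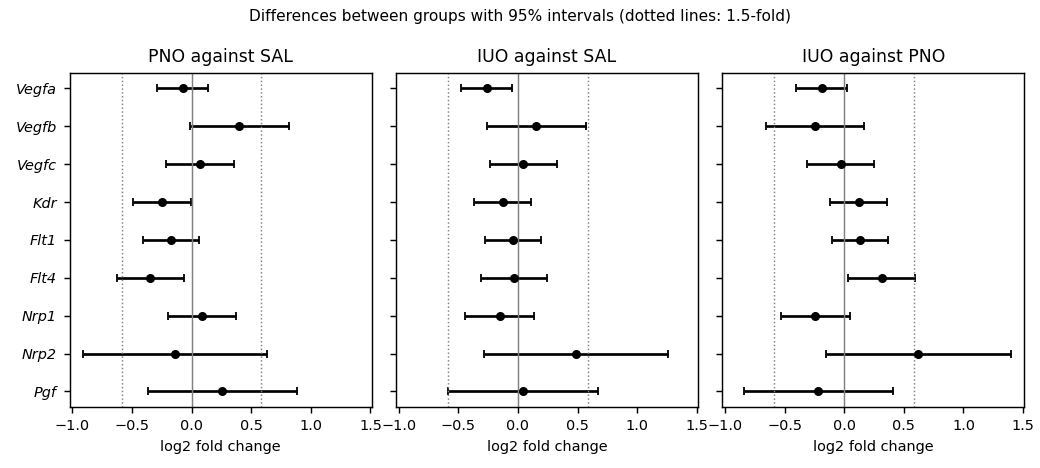
Log2 fold change of each member in the 3 comparisons, with points at the edgeR estimate and bars for its 95% interval; the dotted lines mark 1.5-fold. Vegfa between IUO and SAL, Kdr and Flt4 between PNO and SAL, and Flt4 between IUO and PNO have intervals that leave out 0, and Nrp2 and Pgf have the widest.

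Among the ligands, Vegfa had its lowest levels in IUO pups. The lowest, median and highest values were 95.27, 109.5 and 114.4 CPM in SAL, 90.75, 97.13 and 121.2 CPM in PNO and 72.37, 85.9 and 111 CPM in IUO. Of the 6 IUO pups, replicates 3 to 6 lay between 72.37 and 87.82 CPM, below every SAL and PNO pup, and replicates 1 and 2 at 111 and 103.6 CPM lay inside the SAL range.
The mean in IUO was 89.52 ± 14.9 CPM against 107.4 ± 7.45 in SAL (SD, n = 6 each), a log2 fold change of -0.26 (SE 0.101, 95% interval -0.48 to -0.05, edgeR adjusted p = 0.611). Leaving out each pup in turn kept this between -0.33 and -0.22, with adjusted p-values between 0.364 and 0.948. Over the other settings the adjusted p-value ranged from 0.0641, with limma-voom, to 0.704. Between IUO and PNO the log2 fold change was -0.19 (SE 0.101, edgeR adjusted p = 0.389). With limma-voom, which weighted each pup by its quality, it was -0.28 with an adjusted p-value of 0.043, under 1.5-fold and the single member value past that threshold over the settings tried. With the mean log2 CPM of oligodendrocyte markers as a covariate it was -0.04 (edgeR adjusted p = 0.96). Between PNO and SAL it was -0.08 (95% interval -0.29 to 0.14), and it ranged from -0.13 without PNO replicate 2 to -0.04 without PNO replicate 1.

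Vegfb, a ligand of Flt1, had its highest mean in PNO. It ran from 10.34 through a median of 12.53 to 22.07 CPM in SAL, from 11.82 through 19.59 to 24.65 CPM in PNO and from 13.78 through 16.29 to 21.15 CPM in IUO. In SAL 4 pups lay between 10.34 and 12.61 CPM and 2 pups, replicates 2 and 4, above 20 CPM, inside the PNO range. The log2 fold change between PNO and SAL was 0.40 (SE 0.197, 95% interval -0.01 to 0.81, edgeR adjusted p = 0.912), and between IUO and SAL 0.15 (adjusted p = 0.982), which ranged from 0.06 without SAL replicate 6 to 0.30 without SAL replicate 4. Leaving out SAL replicate 4 gave 0.54 and SAL replicate 6 gave 0.31 between PNO and SAL.
The lymphatic ligand Vegfc stayed between 2.68 and 4.176 CPM in all pups, and its largest log2 difference between groups was 0.07 (95% interval -0.21 to 0.35), between PNO and SAL, with a range of 0.02 without PNO replicate 2 to 0.12 without PNO replicate 1. Pgf, the placental growth factor, lay between 0.424 and 1.704 CPM, and its estimates of 0.26, 0.04 and -0.22 had standard errors near 0.3 (0.298, 0.3 and 0.298), and each interval reached past 1.5-fold in at least 1 direction. Between PNO and SAL the Pgf estimate ranged from 0.08 without PNO replicate 5 to 0.36 without PNO replicate 4. Between IUO and PNO it was -0.47 without IUO replicate 2 and -0.05 without PNO replicate 5.

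**Figure D3:**
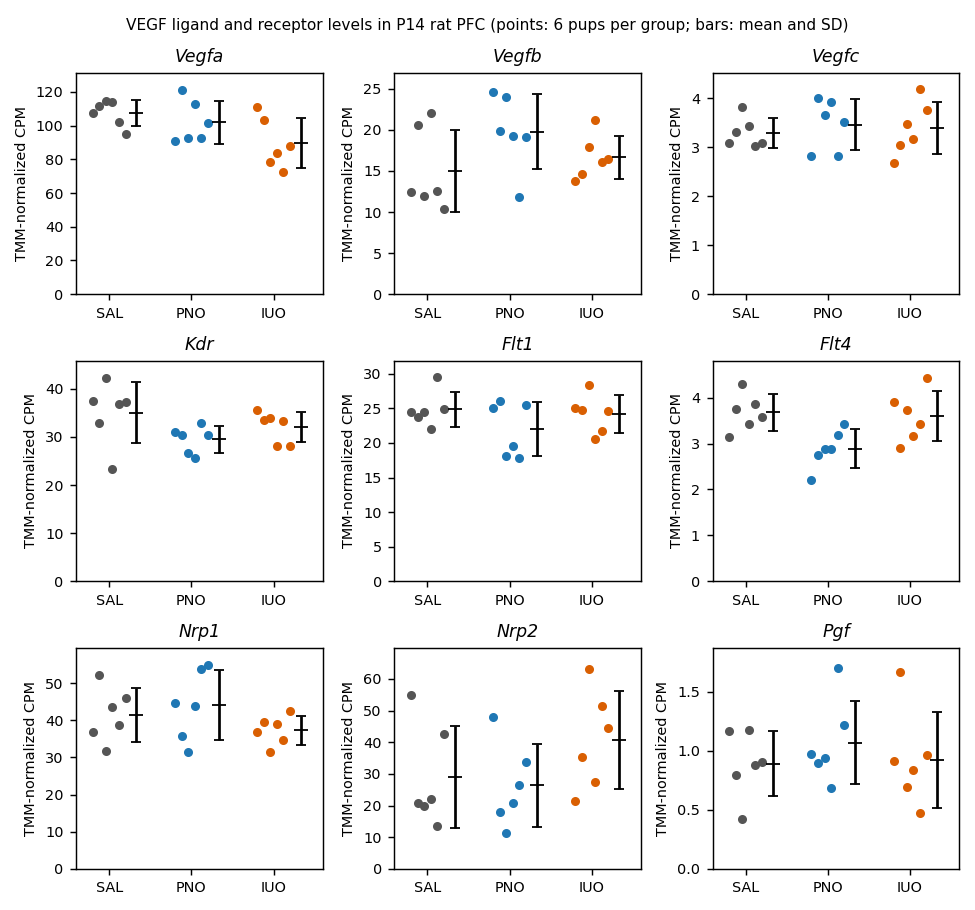
TMM-normalized CPM of each member by group, with 1 point per pup in the order of its replicate number and a bar for the mean and SD. The groups overlap in every panel; 4 of 6 IUO pups lie below all others for Vegfa, and Nrp2 has the widest range, from 11.15 to 63.29 CPM.

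Among the receptors, the differences between PNO and SAL pointed down for all 3 kinases, and none passed the adjusted threshold. Kdr ran from 23.43 through 37.09 to 42.29 CPM in SAL, from 25.52 through 30.42 to 32.9 CPM in PNO and from 28.03 through 33.36 to 35.64 CPM in IUO. In SAL 5 of 6 pups lay above every PNO pup, and replicate 4 at 23.43 CPM lay below all of them. Replicate 4 is the pup with the highest mitochondrial share, and its part in the result was not tested beyond leaving it out: the log2 fold change was -0.25 (edgeR adjusted p = 0.912) with it and -0.34 (adjusted p = 0.549) without it. Between IUO and SAL the Kdr estimate was -0.13 (95% interval -0.37 to 0.11), and it ranged from -0.22 without SAL replicate 4 to -0.07 without SAL replicate 3.
Flt4 ran from 3.137 through 3.672 to 4.293 CPM in SAL, from 2.217 through 2.882 to 3.43 CPM in PNO and from 2.901 through 3.582 to 4.422 CPM in IUO. The PNO pups were mostly the lower ones, with 4 of 6 below every IUO pup. Between IUO and PNO the log2 fold change was 0.32 (SE 0.134, 95% interval 0.03 to 0.60, edgeR adjusted p = 0.279), and 0.24 to 0.37 with each pup left out. Between IUO and SAL it was -0.03 (95% interval -0.31 to 0.25). Between PNO and SAL it was -0.35, and -0.40 to -0.28 with each pup left out.
Flt1 lay between 17.89 and 29.5 CPM in all pups, and its estimate between PNO and SAL was -0.17 (95% interval -0.41 to 0.06).

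The co-receptors showed opposite signs between IUO and PNO without passing the test. Nrp2 ran from 13.53 through 21.51 to 54.97 CPM in SAL, from 11.15 through 23.52 to 48.03 CPM in PNO and from 21.49 through 39.99 to 63.29 CPM in IUO. Of the IUO pups 3 lay above 44 CPM, as did SAL replicate 1 and PNO replicate 1. The log2 fold change between IUO and PNO was 0.62 (SE 0.368, 95% interval -0.15 to 1.40, edgeR adjusted p = 0.429). Without PNO replicate 1 it was 0.88 (edgeR adjusted p = 0.192), without IUO replicate 3 it was 0.45 (adjusted p = 0.652), and with the oligodendrocyte markers as a covariate it was 0.33 (adjusted p = 0.92). Nrp1 lay between 31.56 and 55.01 CPM in all pups and had an estimate of -0.24 between IUO and PNO (SE 0.137, adjusted p = 0.408).

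Ratios inside a pup do not depend on how libraries are scaled against each other, and 3 were compared on the TPM scale by two-sided exact permutation tests (6 pups against 6, smallest p-value possible 0.00216), adjusted over the 9 tests. The ratio of Vegfb to Vegfa, a ligand of Flt1 and not of Kdr against the ligand of both, was 0.2752 ± 0.0798 in SAL, 0.3914 ± 0.1126 in PNO and 0.3826 ± 0.1011 in IUO (SD, n = 6 each). It was 1.42-fold higher in PNO than in SAL (exact p = 0.0693, adjusted p = 0.2143) and 1.391-fold higher in IUO than in SAL (exact p = 0.0714, adjusted p = 0.2143). These differences did not pass the threshold, and both share the SAL pups. On the TPM scale the Vegfb mean was higher and the Vegfa mean lower than in SAL in both groups, at 17.54 and 45.19 in PNO and 15.71 and 42.18 in IUO, beside 13.81 and 50.71 in SAL.
The ratio of Nrp1 to Nrp2 was 2.0646 ± 0.9665 in SAL, 2.2313 ± 0.7261 in PNO and 1.2311 ± 0.5275 in IUO. Its exact p-value between IUO and PNO was 0.0303 (adjusted p = 0.2143). The ratio of Flt1 to Kdr, the ligand-holding against the signalling receptor, had means of 0.6224, 0.642 and 0.6495 in SAL, PNO and IUO, and its smallest exact p-value was 0.5606.

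**Figure D4:**
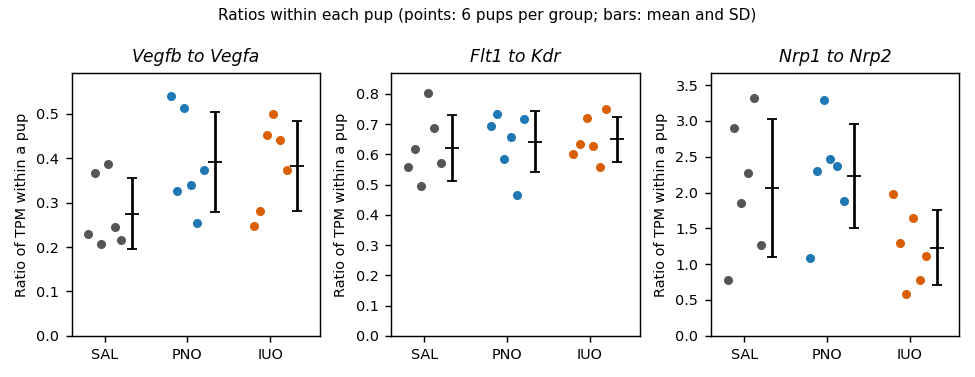
Ratio of TPM of the named genes within each pup, with 1 point per pup and a bar for the mean and SD of the 6 pups of a group. The Flt1 to Kdr ratio centres on means of 0.6224 to 0.6495 in the 3 groups, and IUO has the lowest mean ratio of Nrp1 to Nrp2, at 1.2311.

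Kdr and Vegfb levels ran opposite to each other across pups. This pair was singled out after all 36 pairs of members had been computed over the 18 pups. Pearson's r of log2 CPM was -0.763 (permutation p = 0.00019, adjusted p = 0.00684 over the 36 pairs) and Spearman's rho -0.769 (permutation p = 0.00036, adjusted p = 0.013). The sign held inside each group, with r of -0.826 in SAL, -0.489 in PNO and -0.689 in IUO (6 pups each), and without the 2 pups farthest from the Kdr median r was -0.779. On the TPM scale it was -0.487 (permutation p = 0.0414, adjusted p = 0.171).
Other pairs did not pass the adjustment over 36, among them the receptors Flt1 and Kdr with r of 0.497 (permutation p = 0.0362, adjusted p = 0.238).
Measures of the libraries moved with both genes. Over the 18 pups, Kdr had an r of -0.599 and Vegfb of 0.424 with the mitochondrial share. The per-pup slope of level on gene length had an r of 0.491 with Kdr and -0.431 with Vegfb. They moved with other members too. Vegfa had an r of -0.552 with the slope and 0.555 with the mitochondrial share, and Nrp2 had 0.608 and -0.42, and the part of these measures in the group differences of both genes was not tested. After regression of both genes on the slope, r between them was -0.701 (permutation p = 0.0011, adjusted p = 0.0396), and after regression on the mitochondrial share -0.702 (permutation p = 0.00126, adjusted p = 0.0254).

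The genes whose log2 CPM followed each member most closely over the 18 pups are given by Pearson's r among 15702 other genes, with no test because they were picked for it. Those of Flt1 were Adgrf5 (0.888), Dnah8 (0.755) and Slc19a3 (0.747), and those of Flt4 were Tie1 (0.767), Sox7 (0.763) and LOC100912034 (0.751). Adgrf5, Tie1 and Sox7 are known from endothelial cells. Those of Kdr were Kansl2 (0.849), Tead4 (0.828) and Arsi (0.799). Of these 9 genes Tie1 is in the endothelial list.
Vegfa was followed by LOC100910207 (0.927), Rsrp1 (0.91) and Usp40 (0.895), Vegfb by Cerkl (0.857), Fam122a (0.805) and Plekhf1 (0.787), and Vegfc by Tmem179b (0.772), Bckdk (0.77) and Ube2l6 (0.764). Nrp1 was followed by Tshz2 (0.87), Cachd1 (0.853) and Tenm2 (0.847), and Nrp2 by Stac (0.89), Auts2 (0.882) and Ankfn1 (0.879). Tshz2, Tenm2 and Auts2 are known from neurons. For the low Pgf the values were 0.723 for Olr1, 0.697 for Cd68 and 0.691 for RragB.

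Endothelial cells carry the 3 receptor kinases, so each member was set beside the markers of these cells. Of 14 endothelial markers tested, 1 was lower at an unadjusted p-value under 0.05 between PNO and SAL and 0 in the other comparisons, and none passed the adjusted threshold. Estimates were lower for 10 and higher for 4 of the 14 between PNO and SAL and again between IUO and SAL. The median log2 fold change was -0.09 in both, beside 0.00 and -0.01 over all genes. Between IUO and PNO 9 of these markers were higher and 5 lower. Their summed level ran from 353.4 to 500.3 CPM in SAL, from 360.4 to 497.2 CPM in PNO and from 368.4 to 461.4 CPM in IUO, and none of them was at 0. With the mean log2 CPM of these markers as a score, 0 of 9 members had an r past the adjusted threshold over the 18 pups on the CPM scale. After subtraction of group and replicate-number means, r was 0.718 for Vegfa and 0.64 for Flt4. The permutation test there shuffled the 18 remainders without counting the means removed. Its adjusted p-values of 0.00594 and 0.0216 are therefore too small, and no call is made from them. On the TPM scale Kdr, Flt1 and Flt4 passed the adjusted threshold (0.78, 0.729 and 0.632). Vegfa was nearest, with r of 0.565 (permutation p = 0.0133, adjusted p = 0.12), rho of 0.577 (permutation p = 0.0126, adjusted p = 0.11376), and 0.41 without the 2 pups farthest from the median score. Within SAL, PNO and IUO its r was 0.77, 0.618 and 0.666. For Flt1 r was 0.467 (permutation p = 0.0502, adjusted p = 0.226) with rho of 0.496 (permutation p = 0.0383, adjusted p = 0.17226), and without the 2 farthest pups it was 0.464. For Kdr r was 0.225 (permutation p = 0.372, adjusted p = 0.486) with rho of 0.253 (permutation p = 0.309, adjusted p = 0.46392), and 0.04 without those pups.
With the score as a covariate in the edgeR model, the log2 fold change of Kdr between PNO and SAL was -0.23 and that of Flt4 -0.31, beside -0.25 and -0.35 without it.

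Oligodendrocyte markers had their highest median level in PNO and their lowest in IUO. Over the 18 pups the mean log2 CPM of these markers had an r of 0.551 with Vegfa and 0.573 with Vegfb, of 0.025 with Vegfc and 0.082 with Pgf, and of -0.468 with Flt4, -0.429 with Nrp2 and -0.316 with Kdr. The summed level of 7 markers of these myelinating cells had a median of 6110 CPM in SAL (1666 to 9082), 10060 CPM in PNO (2821 to 14390) and 2913 CPM in IUO (2128 to 5454), and 7 of 7 were lower in IUO than in PNO at an unadjusted edgeR p-value under 0.05, with 0 past the adjusted threshold and 0 at a level of 0. At that p-value 1 of 7 was higher in PNO than in SAL and 0 of 7 differed between IUO and SAL. The 4 IUO pups with the lowest Vegfa had oligodendrocyte sums between 2128 and 2997 CPM, and the other 2 had 5454 and 5192 CPM. SAL replicate 6 had the lowest sum of all pups, 1666 CPM, and the lowest Vegfa of SAL, 95.27 CPM, above those 4 IUO pups. PNO replicate 1 had the highest sum of all pups, 14390 CPM, and the lowest Vegfa of PNO, 90.75 CPM. The PNO pup with the lowest Vegfb, replicate 5, also had the lowest oligodendrocyte sum of its group, at 2821 CPM.
With the oligodendrocyte score as a covariate, a setting chosen after seeing the data, the Vegfb estimate between PNO and SAL was 0.19 in place of 0.40, that between IUO and SAL was 0.39 in place of 0.15, and that between IUO and PNO was 0.20 in place of -0.25. The Vegfa estimate between IUO and SAL was -0.19 (edgeR adjusted p = 0.694) in place of -0.26, between IUO and PNO it was -0.04 in place of -0.19, and between PNO and SAL it was -0.15 in place of -0.08. The Nrp2 estimate between IUO and PNO was 0.33 in place of 0.62. The part of oligodendrocytes in these estimates was not tested. Their markers had different levels in the same groups, so it cannot be told apart from exposure.
Other marker lists were set beside the members. Nrp2 had an r of 0.795 over the 18 pups with the score of Prox1, Pdpn and Lyve1, which was its highest among the marker lists. These 3 genes were listed as lymphatic endothelial markers, and which cells carried them in this tissue was not tested. Ccl21, also on that list, had a median of 0.1565 CPM. With the same score Vegfa had an r of -0.623, and the lymphatic ligand Vegfc and its receptor Flt4 had -0.11 and 0.03. The summed level of these and Ccl21, which did not pass the filter on low counts, was 34.04 to 45.1 CPM in SAL, 37.52 to 45.02 CPM in PNO and 41.86 to 49.86 CPM in IUO, none of them was at 0 in every pup, and 1 of the 3 tested, Pdpn, was higher in IUO than in SAL and than in PNO at an unadjusted p-value under 0.05 (edgeR adjusted p = 0.542 and 0.244). The part of these markers in the Nrp2 and Vegfa results was not tested. The 7 striatal markers had higher estimates in IUO than in SAL and than in PNO for 7 of 7 genes, with 0 of 7 under an unadjusted p-value of 0.05, and median sums of 247.9 CPM in SAL, 248.3 CPM in PNO and 574.2 CPM in IUO. Nrp1 had an r of -0.692 with the striatum score over the 18 pups. With that score as a covariate, also a setting chosen after seeing the data, the Nrp1 estimate between IUO and PNO was -0.06 in place of -0.24. The part of striatal tissue in this estimate was not tested. Its markers had different levels in the same groups, so it cannot be told apart from exposure.
Of 8 astrocyte markers, 3 (S100b, Gfap and Aqp4) were lower in IUO than in PNO at an unadjusted p-value under 0.05, with a median log2 fold change of -0.25 over the list, and 0 passed in the other comparisons or at the adjusted threshold. Their summed level was 1666 to 2285 CPM in SAL, 1817 to 2538 CPM in PNO and 1690 to 2096 CPM in IUO, none was at 0 in every pup, and Vegfa had an r of -0.07 with their score. At the unadjusted p-value 0 of 8 neuronal markers passed in any comparison, and 1 of 10 mural markers was lower between IUO and PNO. Of 6 meningeal fibroblast markers 1 was higher and 1 lower between IUO and PNO. Of 7 microglial markers 1 was lower in each comparison, P2ry12 between PNO and SAL and Tmem119 in both comparisons with IUO. Tmem119 had log2 fold changes of -1.34 between IUO and SAL (edgeR adjusted p = 0.0997) and -1.32 between IUO and PNO (adjusted p = 0.0524). For the 7 choroid plexus markers 0 passed.
Blood markers were higher in IUO than in SAL at an unadjusted p-value under 0.05 for 4 of 6 rows, with a summed level of 1104 to 7514 CPM in IUO and 479 to 2554 CPM in SAL, and for 3 of 6 rows they were higher in IUO than in PNO (355.3 to 2200 CPM). None passed the adjusted threshold and none was at 0 in every pup. Flt4 had an r of 0.558 with the blood score over the 18 pups, its largest with any marker list, and the part of these markers in the Flt4 result was not tested.

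**Figure D5:**
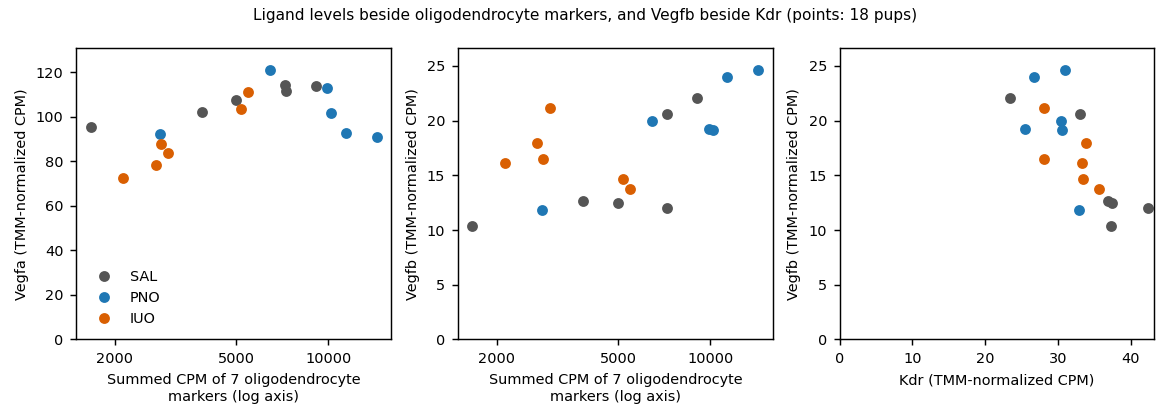
Left and middle, Vegfa and Vegfb CPM against the summed CPM of 7 oligodendrocyte markers on a log axis; right, Vegfb CPM against Kdr CPM, with 1 point for each of 18 pups coloured by group. The 4 lowest Vegfa pups are IUO pups with oligodendrocyte sums between 2128 and 2997 CPM, and pups with more Kdr had less Vegfb.

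Genes that act around the family were counted from 5 lists. Of 11 genes of oxygen sensing, which control Vegfa, 0 of 11 passed an unadjusted p-value under 0.05 between PNO and SAL, 1 was higher and 1 lower between IUO and SAL, and 1 was higher and 1 lower between IUO and PNO. Hif1a and Epas1, the oxygen-regulated subunits of hypoxia-inducible factors, had log2 fold changes between IUO and SAL of -0.05 (95% interval -0.24 to 0.13) and -0.11 (-0.24 to 0.02). Of 31 genes of receptor signalling, 1 was higher and 3 lower between PNO and SAL, 1 higher and 1 lower between IUO and SAL, and 3 higher and 0 lower between IUO and PNO. Of 15 genes of ligand processing and receptor partners, 0 passed between PNO and SAL, and 1 was higher in each of the other comparisons. Of 12 semaphorins and plexins, the other partners of the neuropilins, 1 was lower between PNO and SAL, and 1 was higher and 1 lower in each of the other comparisons. Of 17 vessel sprouting genes, 2 were lower between PNO and SAL, 3 lower between IUO and SAL, and 0 passed between IUO and PNO. The median log2 fold changes of the sprouting genes were -0.12, -0.15 and -0.03, beside 0.00, -0.01 and 0.00 over all genes. No gene of the 5 lists passed the adjusted threshold, and the shares of all genes passing at the unadjusted p-value were 4.5%, 6.88% and 15.3%.

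The list genes with the smallest p-values were these. Between PNO and SAL they were Dll4, the Notch ligand of sprouting tip cells, with a log2 fold change of -0.38 (SE 0.106, edgeR adjusted p = 0.912), the semaphorin Sema3g with -0.44 (adjusted p = 0.912) and the endothelial nitric oxide synthase Nos3 with -0.28 (adjusted p = 0.912). Between IUO and SAL the kinase Akt1 had 0.19 (SE 0.053, edgeR adjusted p = 0.424), Sema3e, which acts on the plexin Plxnd1, had -0.69 (adjusted p = 0.561) and Sema3b had 0.35 (adjusted p = 0.624). Dll4 and Nos3 had estimates of -0.26 and -0.25 in that comparison, which shares its SAL pups with the first. Between IUO and PNO Akt1 had 0.22 (SE 0.053, edgeR adjusted p = 0.0923), the oxygen sensor Egln3 had 0.72 (adjusted p = 0.129) and the ephrin Efnb2 had 0.60 (adjusted p = 0.138). Among these genes, the groups did not overlap for Akt1, Dll4 and Sema3g between IUO and SAL and for Akt1 and Efnb2 between IUO and PNO, where 0.745% and 1.66% of all genes did not overlap.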

How the data were processed

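RNA was sequenced from the PFC of 18 P14 pups, 6 per group, and groups and replicate numbers were read from the sample titles. The authors deposited 1 table per pup with expected counts, in which reads that match several genes are shared out, and with TPM, FPKM, length and effective length for 32623 genes. FPKM deposited by the authors was not used. The aligner, quantifier, genome build and annotation are not given in the sources used here, and reads that overlap another gene could not be separated by strand.

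After rounding of the expected counts, edgeR 4.0.16 (R 4.3.3) tested them (TMM, filterByExpr, quasi-likelihood test in 1 model over 3 groups, two-sided, residual df 15, Benjamini-Hochberg over 15703 genes). No block or covariate was used. Levels between pups are TMM-normalized CPM. A prior count of 2 went into log2 CPM for scores, for correlations with scores and for the genes that followed each member. The correlations between pairs of members used log2 CPM without a prior count. TPM that the authors deposited served for levels between genes and for ratios. TPM is a share of each library, mitochondrial transcripts included. Permutation p-values for correlations used 100000 resamples. The length slope is the fitted change of a pup's log2 CPM, centred per gene, per doubling of gene length over all genes tested. Alternatives were other size factors, no normalization beyond library size, DESeq2 1.42.0, limma-voom (limma 3.58.1), other filters, a replicate block, only the 12 pups of a comparison, covariates from marker scores and each pup left out. The tests were tested on simulated data. No pair of pups of a group had identical values.

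All 9 members were named, with the 3 genes most correlated with each, and from each comparison the list genes past an adjusted p-value of 0.05 or else the 3 with the smallest unadjusted p-values. The members and lists were chosen with earlier results of these data known. Promoters came from the RefSeq table of build GRCr8, matched by symbol for 9 of 9 members. Python 3.11.15 with scipy 1.17.1, pandas 2.3.3, numpy 2.4.6 and matplotlib 3.10.9 made the tables and plots.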

Additional observations from a re-analysis of the deposited data

Results flagged for a closer look

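Among the 36 sets of 6 pups examined (9 members and 3 ratios in 3 groups), 1 held a pup that stood far from the others. Vegfb in PNO replicate 5 was at 11.82 CPM, and the next pup of the group was at 19.1 CPM. On the log2 CPM scale, on which the check was made, the gap was 0.653 of the range of the group. The critical value for 6 samples is 0.625. Chance alone gives such a pup in about 1 in 20 groups. Without this pup, the log2 fold change of Vegfb between PNO and SAL was 0.51 (edgeR adjusted p = 0.739).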

How the results depend on the processing

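The count of members called was 0 in every comparison under each of the 12 other settings. The count at an unadjusted p-value under 0.05 between PNO and SAL was 1 in place of 2 with only the 12 pups compared and with the endothelial, oligodendrocyte, striatum or choroid plexus score as covariate, the last 3 chosen after seeing the data, and 3 with DESeq2 and with the replicate block. Between IUO and PNO it was 2 with the endothelial score, 0 with the oligodendrocyte score and 0 with only the 12 pups compared, in place of 1. The limma-voom estimate of -0.282 for Vegfa between IUO and PNO passed the adjusted threshold. Some values changed sign. Vegfc between IUO and PNO was 0.018 without normalization and 0.008 with the striatum score in place of -0.027, Flt4 between IUO and SAL 0 with the endothelial and 0.017 with the striatum score in place of -0.032, and Nrp1 between IUO and SAL 0.007 with the striatum score in place of -0.153. With the oligodendrocyte score Nrp2 between PNO and SAL was 0.041 in place of -0.136 and Vegfb between IUO and PNO 0.199 in place of -0.247. The cause was not tested. With each pup left out in turn, Nrp2 between PNO and SAL ranged from -0.398 to 0.142. For IUO against SAL Pgf ranged from -0.217 to 0.171, Flt1 from -0.089 to 0.017, Flt4 from -0.1 to 0.016 and Vegfc from -0.033 to 0.101. Vegfc between IUO and PNO ranged from -0.104 to 0.031. The log2 ratio of Vegfb to Vegfa between IUO and PNO ranged from -0.144 to 0.088, that of Flt1 to Kdr from -0.063 to 0.068 between IUO and PNO and from -0.016 to 0.135 between PNO and SAL, and that of Nrp1 to Nrp2 between PNO and SAL from -0.054 to 0.391. For the endothelial score, TPM in place of CPM gave r of 0.78 for Kdr, 0.729 for Flt1 and 0.632 for Flt4, past the adjusted threshold, and 0.025 for Nrp1 and 0.255 for Nrp2. The TPM of all genes of a pup share that pup's scale, and the part of this scale in these r was not tested. Without the 2 farthest pups r was 0.065 for Vegfb, -0.077 for Vegfc and 0.15 for Pgf, and with group means subtracted 0.074 for Vegfb. No scaling moved the median of all genes by over 0.1 on the log2 scale. The count of all genes called between IUO and PNO was 7 with edgeR, 172 with DESeq2 and 703 with limma-voom, and between IUO and SAL it was 0, 22 and 17.

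Pups with the same replicate number had a mean correlation of 0.232 for PNO with SAL, -0.027 for IUO with SAL and 0.063 for IUO with PNO, with 4, 1 and 3 of the 6 pairs over 0.1, which is short of every pair, and the samples were not treated as paired. With a replicate block, Vegfa between IUO and SAL was -0.273 (edgeR adjusted p = 0.514), Kdr between PNO and SAL -0.235 and Flt4 -0.353. In the blocked correlations with the endothelial score, Vegfa had an r of 0.718 and Flt4 of 0.64. Their permutation p-values did not count the means removed, so no call is made from them. Depth limits Pgf most, at 8 to 34 counts per pup.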
